A study of Homo sapiens with 15 samples.

Results

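The 9 genes described here supply cysteine or defend cells against oxidants: CTH, CBS, SLC7A11, GCLC, GCLM, TXNRD1, NQO1, HMOX1 and SRXN1. They were named as a list and selected by their place in 1 pathway, with earlier results from these arrays already known, among them the lower CTH level after miR-224 than after scrambled mimic in PC3. For that reason every difference between miR-224 and scrambled mimic is given below as a description without a test. Tests of the other genes that use the miR-224 or scrambled arrays share arrays with that comparison and are not independent of it. Every test also takes its spread from all arrays of its fit, the miR-224 and scrambled arrays among them. Of the 9 genes, 8 had a feature of their own on the array, out of 18377 genes measured. The feature for CBS also carried the symbol of a near-identical gene copy, LOC102724560, and no value is given for it.

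RNA was measured in 2 prostate cancer cell lines, PC3, which came from a bone metastasis, and DU145, which came from a brain metastasis. Cells were transfected with a synthetic mimic of miR-224, with a mimic of miR-452, with a scrambled mimic that served as the control for transfection, or were left untransfected. Mimics were used at 20 nM with Lipofectamine 2000, the medium was renewed at 6 h and RNA was taken at 48 h. Each group held 2 arrays except the DU145 scrambled group, which held 1 because the authors set another array aside for poor performance. Both lines are long-established cultures, and the miR-224 and miR-452 groups hold a microRNA added in excess rather than one raised from its own gene. The labels do not say whether the arrays of a group came from separate cultures, so every p-value measures only the spread between these arrays, which may be technical.

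As background, cells obtain cysteine either by importing its oxidised form, cystine, or by building it from methionine through transsulfuration. In that route CBS joins homocysteine and serine to cystathionine, and CTH splits cystathionine to release cysteine. SLC7A11 is the transporter subunit of the antiporter that brings cystine in and sends glutamate out. Cysteine limits the making of glutathione, whose first step is run by glutamate-cysteine ligase, with GCLC as the catalytic and GCLM as the modifier subunit. TXNRD1 keeps thioredoxin reduced, SRXN1 repairs over-oxidised peroxiredoxins, NQO1 reduces quinones, and HMOX1 breaks down heme. Most of these genes are known targets of the transcription factor NRF2 (gene NFE2L2), which is held in check by KEAP1 and binds antioxidant response elements, while the repressor BACH1 occupies such elements at HMOX1. CTH and SLC7A11 are also known targets of ATF4, the transcription factor of the amino acid shortage response.

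A microRNA finds its target transcripts mainly through its seed, so the seeds of the added microRNAs show what each mimic could pair with. The RefSeq sequences of the 5p arms follow, with bases 2 to 8, the seed, in capitals. The labels do not name the arm, the mature microRNAs themselves were not measured on these arrays, and no target search was made. Both lie on the minus strand within the span of GABRE in GRCh38.p14, miR-224-5p at chrX:151958628-151958652 and miR-452-5p at chrX:151959678-151959699. The seeds are different.
hsa-miR-224-5p: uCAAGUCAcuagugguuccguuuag
hsa-miR-452-5p: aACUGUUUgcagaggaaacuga

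Promoter windows are shown for GCLM and TXNRD1, which were lower with scrambled mimic than in untransfected cells in both lines, and for CTH. The CTH difference between the same groups was 0.80 (log2) in PC3 and -0.31 in DU145. Both are given without a test, and the second rests on 1 scrambled array. RefSeq windows of 300 bases, 250 before to 50 after the transcript start, were found for 7 of the 9 genes in GRCh38.p14. SLC7A11 and HMOX1 are named only. The core letters of an antioxidant response element, TGACNNNGC, were searched on both strands and occurred in 4 of the 10 windows of these genes, against 13.3% of all 35116 windows. These 4 windows belong to 3 genes, GCLM with 1, TXNRD1 with 2 and CBS with 1, so they are not independent. The CBS match ran from base -83 to base -75 relative to the start. The match in the GCLM window (chr1:93909381-93909680, minus strand) ran from base -34 to base -26 relative to the start. The upstream TXNRD1 window (chr12:104215529-104215828, plus strand) held matches from -99 to -91 and from -8 to 1. The downstream TXNRD1 window (chr12:104286782-104287081, plus strand) held a match from -102 to -94. The CTH window (chr1:70411018-70411317, plus strand) held none of these letters, nor did those of GCLC, NQO1 and SRXN1. Matches are in capitals, and a match is not evidence of binding.
GCLM: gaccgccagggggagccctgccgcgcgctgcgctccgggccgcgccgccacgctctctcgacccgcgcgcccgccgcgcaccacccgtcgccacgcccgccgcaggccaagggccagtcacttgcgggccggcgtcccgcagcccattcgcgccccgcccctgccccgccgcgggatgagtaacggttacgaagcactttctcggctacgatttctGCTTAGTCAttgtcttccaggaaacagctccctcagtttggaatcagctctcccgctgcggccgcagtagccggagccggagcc
TXNRD1, upstream start: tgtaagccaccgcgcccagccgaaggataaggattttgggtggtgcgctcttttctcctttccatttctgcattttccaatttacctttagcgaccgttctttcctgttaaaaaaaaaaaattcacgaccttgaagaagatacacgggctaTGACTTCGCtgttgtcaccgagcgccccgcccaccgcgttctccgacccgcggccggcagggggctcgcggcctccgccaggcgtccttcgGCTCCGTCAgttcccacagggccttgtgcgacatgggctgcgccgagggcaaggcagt
TXNRD1, downstream start: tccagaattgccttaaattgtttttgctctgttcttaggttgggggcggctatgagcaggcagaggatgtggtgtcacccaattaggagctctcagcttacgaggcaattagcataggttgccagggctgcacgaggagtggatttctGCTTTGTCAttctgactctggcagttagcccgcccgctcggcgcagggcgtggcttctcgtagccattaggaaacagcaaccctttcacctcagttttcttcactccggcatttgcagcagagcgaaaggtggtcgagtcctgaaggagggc
CTH: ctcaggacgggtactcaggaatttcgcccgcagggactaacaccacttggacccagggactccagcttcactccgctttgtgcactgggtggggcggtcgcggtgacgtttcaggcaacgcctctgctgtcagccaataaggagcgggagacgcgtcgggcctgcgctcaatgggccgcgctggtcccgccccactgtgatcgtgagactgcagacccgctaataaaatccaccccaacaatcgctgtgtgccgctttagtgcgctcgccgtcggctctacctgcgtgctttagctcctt

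Values are the log2 levels that the authors normalized within each line, so levels are set against each other within a line only, and not between genes. Median levels of the PC3 arrays ran from 6.94 to 7.05 and those of the DU145 arrays from 6.51 to 6.67, and arrays of a group correlated at 0.991 to 0.998 across genes. The spread of levels across features was narrower on transfected than on untransfected arrays, with an SD of 1.71 to 1.76 against 1.78 to 1.81 in PC3 and of 1.52 to 1.59 against 1.65 in DU145. Forcing all arrays of a line to the same distribution (quantile normalization) removes that gap, and its results are given beside the calls and counts of calls that it changes, miR-224 against scrambled mimic aside. Epithelial keratins were high in both lines, with KRT8 at 11.22 to 11.56 on PC3 arrays and 11.68 to 12.17 on DU145 arrays. The epithelial marker CDH1 had a median of 7.01 in PC3, where array medians ran from 6.94 to 7.05. The leukocyte marker PTPRC stayed at 5.00 to 5.13 in PC3 and 5.08 to 5.31 in DU145, near the lowest value on any array, 4.49, as did the stromal marker DCN at 4.88 to 5.15 and 5.07 to 5.11. Some markers of other cell types read higher. Medians in PC3 and DU145 were 9.74 and 9.49 for leukocyte CD68, 8.44 and 7.29 for stromal COL1A1, and 8.96 and 5.70 for endothelial KDR. Whether other cell types were present was not tested.

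**Figure D1:**
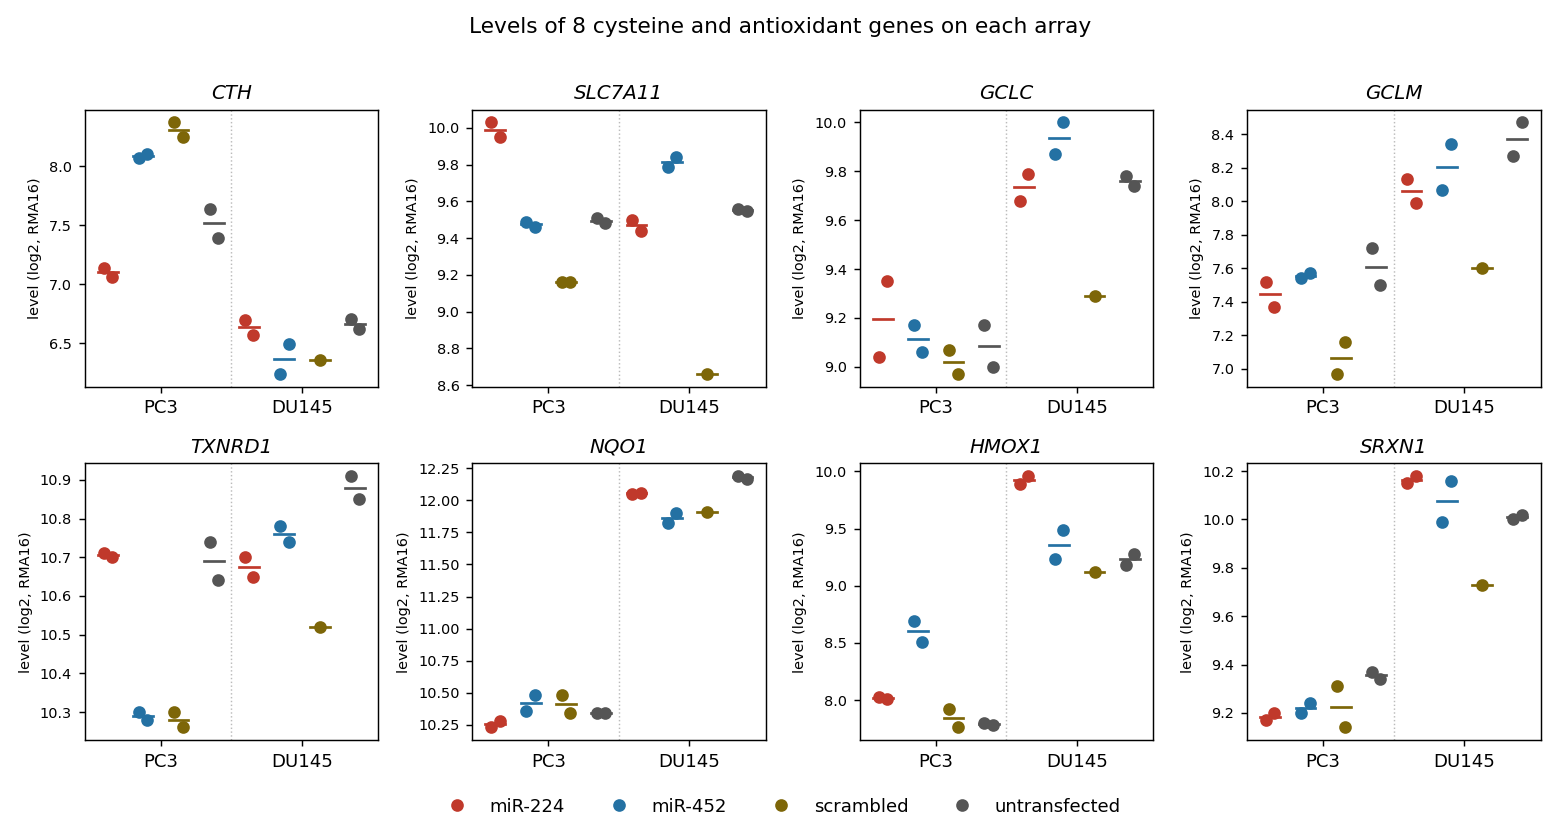
Log2 level of the 8 measured genes on each array, with miR-224, miR-452, scrambled and untransfected cells from left to right within PC3 and DU145. Points are arrays and bars are group means; vertical scales differ between genes. CTH spans 7.06 to 8.37 in PC3 and 6.24 to 6.71 in DU145, and the DU145 scrambled array is the lowest point of its line for SLC7A11, GCLC, GCLM, TXNRD1, HMOX1 and SRXN1.

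CTH, the enzyme that releases cysteine, separated all 4 treatments in PC3 and hardly moved in DU145. Its PC3 levels were 7.14 and 7.06 with miR-224, 8.07 and 8.10 with miR-452, 8.37 and 8.25 with scrambled mimic, and 7.64 and 7.39 in untransfected cells. The order in PC3 was scrambled, miR-452, untransfected and miR-224, with no overlap between neighbours. CTH was thus lower with miR-224 than in any other PC3 group, but it was also higher with both other mimics than without transfection. The difference was -1.21 ± 0.095 (log2, SE), or 2.32-fold lower, for miR-224 against scrambled mimic. Against untransfected cells it was -0.42 ± 0.095, or 1.34-fold lower. Scrambled mimic differed from untransfected cells by 0.80 ± 0.095, or 1.74-fold higher, and miR-224 from miR-452 by -0.99 ± 0.095, or 1.99-fold lower. These 4 differences share arrays with the one by which CTH was noticed and carry no test. Only the miR-452 and untransfected arrays did not take part in it, and between them CTH rose in PC3 by 0.57 ± 0.095, 1.49-fold (limma, Benjamini-Hochberg adjusted p = 0.00245). The SE and p-value use the spread of all PC3 arrays, among them those by which CTH was noticed. They are thus not independent of that choice. That rise held without each PC3 array in turn, at 0.45 to 0.70 (highest adjusted p = 0.0201). In such bulk RNA, fewer cells that express a gene and less RNA per cell cannot be told apart.

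In DU145 the CTH levels were 6.70 and 6.57 with miR-224, 6.24 and 6.49 with miR-452, 6.36 with scrambled mimic, and 6.71 and 6.62 in untransfected cells. All 7 arrays lay within 0.46, against a range of 1.32 in PC3. The DU145 median of CTH was 6.57, where the median levels of the arrays ran from 6.51 to 6.67. Whether the CTH signal in DU145 stands above background was not tested, so its narrow range need not mean a lack of response. The differences between lines for CTH share this limit. The miR-224 and untransfected levels overlapped, as did the miR-452 and scrambled levels. CTH was -0.30 ± 0.10 with miR-452 against untransfected cells and missed the threshold (adjusted p = 0.0598). Without miR-452 replicate c it was -0.42 and passed (adjusted p = 0.0093). For miR-224 the differences were 0.28 ± 0.13 against scrambled mimic and -0.03 ± 0.10 against untransfected cells. The miR-452 change against untransfected cells differed between the lines, PC3 minus DU145, by 0.87 ± 0.14 (adjusted p = 0.00467), and still did without each of the 15 arrays in turn, at 0.74 to 0.99 (highest adjusted p = 0.0348). This test too uses the spread of all 15 arrays, among them those by which CTH was noticed. The other differences between lines for CTH, given without a test, were -1.49 ± 0.16 for miR-224 against scrambled mimic and 1.10 ± 0.16 for scrambled mimic against untransfected cells.

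SLC7A11, the cystine importer, was highest with miR-224 in PC3 and with miR-452 in DU145, and lowest with scrambled mimic in both. In PC3 it read 10.03 and 9.95 with miR-224, 9.49 and 9.46 with miR-452, 9.16 on both scrambled arrays, and 9.51 and 9.48 in untransfected cells. The miR-452 and untransfected arrays overlapped, and the other groups stood apart. With miR-224, SLC7A11 rose 1.41-fold over untransfected cells (0.49 ± 0.075, adjusted p = 0.00208) and 1.43-fold over miR-452 (0.52 ± 0.075, adjusted p = 0.000694). Both held without each PC3 array (highest adjusted p = 0.024 and 0.00889). Against scrambled mimic the miR-224 difference was 0.83 ± 0.075, or 1.78-fold. Scrambled mimic fell below untransfected cells (-0.34 ± 0.075, adjusted p = 0.0165), a call lost after quantile normalization (-0.18, adjusted p = 0.128), without untransfected replicate b (adjusted p = 0.14) and without scrambled replicate c (adjusted p = 0.0713). For miR-452, SLC7A11 rose over scrambled mimic by 0.32 ± 0.075 (adjusted p = 0.0314) and differed from untransfected cells by -0.02 ± 0.075 (95% confidence interval -0.19 to 0.14). The rise over scrambled mimic was lost without any 1 of 6 arrays: scrambled b (adjusted p = 0.101) or c (0.0853), miR-224 a or b (0.0546 each), and miR-452 b (0.162) or c (0.125).

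In DU145 SLC7A11 read 9.50 and 9.44 with miR-224, 9.79 and 9.84 with miR-452, 8.66 on the scrambled array, and 9.56 and 9.55 in untransfected cells. No group overlapped another, and the scrambled array stood furthest from the rest. SLC7A11 rose 2.23-fold with miR-452 against scrambled mimic (1.16 ± 0.10, adjusted p = 0.00335), and held without each of the 6 other arrays (highest adjusted p = 0.00809). Against untransfected cells the miR-452 rise was 0.26 ± 0.083, 1.2-fold (adjusted p = 0.0442), and 0.46 after quantile normalization (adjusted p = 0.0137). It was lost without untransfected b (adjusted p = 0.216) or c (0.241), miR-224 a or c (0.0682 each) or miR-452 a (0.0579), and with low genes left out (0.0505). Scrambled mimic was 1.86-fold lower than untransfected cells (-0.90 ± 0.10, adjusted p = 0.0114), lost without untransfected b (adjusted p = 0.0676) or c (0.0725). With miR-224, SLC7A11 differed from untransfected cells by -0.09 ± 0.083 (interval -0.28 to 0.10) and from scrambled mimic by 0.81 ± 0.10. It was lower with miR-224 than with miR-452 (-0.35 ± 0.083, adjusted p = 0.0399), opposite to PC3, and this was lost without untransfected b or c (adjusted p = 0.121 each), miR-224 a (0.134) or c (0.279).

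Tested between the lines, PC3 minus DU145, the SLC7A11 change with miR-224 against untransfected cells differed by 0.58 ± 0.10 (adjusted p = 0.00711) and that with miR-452 against scrambled mimic by -0.84 ± 0.11 (adjusted p = 0.00464). The first passed without each of the 15 arrays in turn (highest adjusted p = 0.0445). The second passed without each of the other 14 (highest adjusted p = 0.0199), and cannot be fitted without the lone DU145 scrambled array. Its fall with scrambled mimic did not pass for a difference between lines (0.56 ± 0.11, adjusted p = 0.0644), but passed after quantile normalization (adjusted p = 0.0488) and without DU145 miR-452 a or c (0.0368 each).

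GCLC and GCLM are the subunits of glutamate-cysteine ligase. Both fell with scrambled mimic against untransfected cells in DU145, while in PC3 only GCLM passed in any tested comparison. No test compared GCLC with GCLM. GCLC in PC3 read 9.04 and 9.35 with miR-224, 9.17 and 9.06 with miR-452, 9.07 and 8.97 with scrambled mimic, and 9.17 and 9.0 in untransfected cells. All 4 groups overlapped there, and no PC3 comparison of GCLC passed among those tested. In DU145 it read 9.68 and 9.79 with miR-224, 9.87 and 10.00 with miR-452, 9.29 with scrambled mimic, and 9.78 and 9.74 in untransfected cells. The scrambled array was the low one, miR-452 stood highest, and the miR-224 and untransfected arrays overlapped. GCLC fell with scrambled mimic against untransfected cells (-0.46 ± 0.11, adjusted p = 0.0323), lost after quantile normalization (-0.31, adjusted p = 0.0718) and without untransfected b (0.169) or c (0.148). It rose 1.56-fold with miR-452 over scrambled mimic (0.64 ± 0.11, adjusted p = 0.0237), lost without either untransfected array (adjusted p = 0.063 each). Against untransfected cells the miR-452 difference was 0.18 ± 0.090 and did not pass (adjusted p = 0.143), while after quantile normalization it was 0.38 and did (adjusted p = 0.0239). The miR-224 difference was 0.44 ± 0.11 against scrambled mimic and -0.02 ± 0.090 against untransfected cells.

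GCLM had its lowest level with scrambled mimic in both lines. In PC3 it read 7.52 and 7.37 with miR-224, 7.54 and 7.57 with miR-452, 6.97 and 7.16 with scrambled mimic, and 7.72 and 7.50 in untransfected cells. Scrambled arrays lay below all others, and both microRNA groups overlapped untransfected cells. GCLM fell with scrambled mimic against untransfected cells (-0.54 ± 0.10, 1.46-fold lower, adjusted p = 0.00808), lost without untransfected b (adjusted p = 0.123). With miR-452 it rose over scrambled mimic by 0.50 ± 0.10 (1.41-fold, adjusted p = 0.0142), lost without scrambled b (adjusted p = 0.0964), miR-452 b (0.0665) or miR-452 c (0.0861). The differences from untransfected cells were -0.16 ± 0.10 with miR-224 (adjusted p = 0.363) and -0.05 ± 0.10 with miR-452 (adjusted p = 0.743). Against scrambled mimic, GCLM was 0.38 ± 0.10 with miR-224.

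The DU145 levels of GCLM were 8.13 and 7.99 with miR-224, 8.07 and 8.34 with miR-452, 7.60 with scrambled mimic, and 8.27 and 8.47 in untransfected cells. Here too the scrambled array was lowest, and the miR-452 arrays overlapped both neighbours. Scrambled mimic was 1.7-fold lower than untransfected cells (-0.77 ± 0.14, adjusted p = 0.0188), lost without untransfected b (adjusted p = 0.0747) or c (0.102). Over scrambled mimic, GCLM was 0.60 ± 0.14 with miR-452 and missed the threshold (adjusted p = 0.0607), which it passed at 0.74 without miR-452 a (0.0291), after quantile normalization (0.0318), and with low genes left out (0.0397). With miR-224 it was -0.31 ± 0.12 against untransfected cells (adjusted p = 0.082), passing without miR-452 a or c (0.0325 each), and 0.46 ± 0.14 against scrambled mimic.

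TXNRD1, the thioredoxin reductase, had 2 levels in PC3. It read 10.71 and 10.70 with miR-224, 10.30 and 10.28 with miR-452, 10.30 and 10.26 with scrambled mimic, and 10.74 and 10.64 in untransfected cells. The miR-224 arrays overlapped the untransfected ones, and the miR-452 arrays overlapped the scrambled ones. Against untransfected cells, TXNRD1 fell with miR-452 (-0.40 ± 0.076, 1.32-fold lower, adjusted p = 0.00511) and with scrambled mimic (-0.41 ± 0.076, 1.32-fold lower, adjusted p = 0.00864). The miR-452 fall was lost without untransfected b (adjusted p = 0.0594), and the scrambled fall without untransfected b (0.11) or scrambled c (0.0547). With miR-224 it differed from untransfected cells by 0.02 ± 0.076 (interval -0.15 to 0.18) and rose over miR-452 by 0.41 ± 0.076 (adjusted p = 0.00291), which held without each PC3 array (highest adjusted p = 0.0287). The miR-224 difference from scrambled mimic was 0.42 ± 0.076, or 1.34-fold. In DU145 it read 10.70 and 10.65 with miR-224, 10.78 and 10.74 with miR-452, 10.52 with scrambled mimic, and 10.91 and 10.85 in untransfected cells. No group overlapped another, and untransfected cells were highest. Scrambled mimic was -0.37 ± 0.10 against untransfected cells (adjusted p = 0.0464), lost after quantile normalization (-0.28, adjusted p = 0.0853) and without untransfected b (0.24) or c (0.182) or miR-224 a or c (0.0713 each). TXNRD1 was -0.21 ± 0.083 with miR-224 (adjusted p = 0.0939) and -0.12 ± 0.083 with miR-452 (adjusted p = 0.265) against untransfected cells, and only the first passed on leaving out an array, miR-452 a or c (0.0409 each).

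SRXN1, the sulfiredoxin, moved little. Its PC3 levels were 9.17 and 9.20 with miR-224, 9.20 and 9.24 with miR-452, 9.31 and 9.14 with scrambled mimic, and 9.37 and 9.34 in untransfected cells. Untransfected arrays were highest, but all PC3 arrays lay within 0.24 and no tested difference passed. The DU145 levels were 10.15 and 10.18 with miR-224, 9.99 and 10.16 with miR-452, 9.73 with scrambled mimic, and 10.00 and 10.02 in untransfected cells. Again the scrambled array was the low one, and the miR-452 arrays overlapped both the miR-224 and the untransfected arrays. SRXN1 with miR-224 stood 0.44 ± 0.11 above scrambled mimic and 0.15 ± 0.090 above untransfected cells (adjusted p = 0.22), the second passing at 0.29 after quantile normalization (adjusted p = 0.0321). The differences were 0.34 ± 0.11 for miR-452 against scrambled mimic (adjusted p = 0.148) and -0.28 ± 0.11 for scrambled mimic against untransfected cells (adjusted p = 0.112). The first passed without miR-452 a (0.0453) and after quantile normalization (0.0484), and the second without miR-452 a or c (0.0331 each). Between the lines, PC3 minus DU145, the SRXN1 change with miR-224 against untransfected cells differed by -0.33 and passed only after quantile normalization among these alternatives (-0.40, adjusted p = 0.0255).

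NQO1, the quinone reductase, was as steady in PC3, at 10.23 and 10.28 with miR-224, 10.36 and 10.48 with miR-452, 10.48 and 10.34 with scrambled mimic, and 10.34 on both untransfected arrays. Its lowest arrays were those with miR-224, all PC3 arrays lay within 0.25, and no tested PC3 difference passed. In DU145 it read 12.05 and 12.06 with miR-224, 11.82 and 11.90 with miR-452, 11.91 with scrambled mimic, and 12.19 and 12.17 in untransfected cells. Every transfected array lay below the untransfected arrays. NQO1 fell with miR-452 against untransfected cells (-0.32 ± 0.083, 1.25-fold lower, adjusted p = 0.0229). The call was lost after quantile normalization (-0.16, adjusted p = 0.133) and without untransfected b (0.165) or c (0.145) or miR-452 a (0.0583). With scrambled mimic the difference was -0.27 ± 0.10 (adjusted p = 0.103, and 0.0364 without miR-452 a or c), and with miR-224 it was -0.12 ± 0.083 (adjusted p = 0.29). The miR-452 change differed between the lines by 0.40 ± 0.11 (adjusted p = 0.0795), which passed without DU145 miR-452 c (0.0404).

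HMOX1, heme oxygenase, rose most over untransfected cells with miR-452 in PC3 and with miR-224 in DU145. Its PC3 levels were 8.03 and 8.01 with miR-224, 8.69 and 8.51 with miR-452, 7.92 and 7.76 with scrambled mimic, and 7.80 and 7.78 in untransfected cells. The miR-452 arrays were highest, then the miR-224 arrays, and the scrambled and untransfected arrays overlapped. With miR-452, HMOX1 rose 1.7-fold over scrambled mimic (0.77 ± 0.089, adjusted p = 0.000476) and 1.76-fold over untransfected cells (0.81 ± 0.089, adjusted p = 0.000228), and both held without each PC3 array (highest adjusted p = 0.00662 and 0.00691). It was lower with miR-224 than with miR-452 (-0.58 ± 0.089, 1.5-fold, adjusted p = 0.000972), which also held without each array (highest adjusted p = 0.0107). The miR-224 difference was 0.18 ± 0.089 against scrambled mimic and 0.23 ± 0.089 against untransfected cells (adjusted p = 0.138), the second passing at 0.27 after quantile normalization (0.0443). HMOX1 is abundant in macrophages, and the summed linear level of 6 leukocyte markers was 1033 and 1008 with miR-224, 1559 and 1572 with miR-452, 1136 and 1090 with scrambled mimic, and 1149 and 1237 in untransfected PC3 cells. CD68 read 9.49 to 10.29 on PC3 arrays and 9.42 to 9.84 on DU145 arrays. No other marker of this list read above 6.66 in either line, so the sum mostly follows CD68. With miR-452 against untransfected PC3 cells, 2 of the 6 rose, CD68 by 0.45 ± 0.079 (adjusted p = 0.0035) and CD14 by 0.30 ± 0.094 (adjusted p = 0.0412, and 0.144 after quantile normalization), while the leukocyte gene PTPRC stayed near the lowest value on the arrays and was 0.06 ± 0.079 (adjusted p = 0.59). The part of these markers in the HMOX1 rise was not tested.

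In DU145, HMOX1 read 9.89 and 9.96 with miR-224, 9.23 and 9.49 with miR-452, 9.12 with scrambled mimic, and 9.18 and 9.28 in untransfected cells. The miR-224 arrays were the high ones, and the miR-452 arrays overlapped the untransfected arrays. HMOX1 rose 1.62-fold with miR-224 over untransfected cells (0.69 ± 0.10, adjusted p = 0.00347), which held without each DU145 array (highest adjusted p = 0.0388). It was 0.80 ± 0.13, or 1.74-fold, above scrambled mimic. Over miR-452 it was higher by 0.56 ± 0.10 (1.48-fold, adjusted p = 0.0144), lost without miR-224 a (adjusted p = 0.0633) or c (0.123). With miR-452 the differences were 0.24 ± 0.13 against scrambled mimic (adjusted p = 0.44) and 0.13 ± 0.10 against untransfected cells (adjusted p = 0.352), the second 0.34 after quantile normalization (0.0388). The summed leukocyte markers were 958 and 991 with miR-224, 1002 and 977 with miR-452, 1200 with scrambled mimic, and 1069 and 1077 in untransfected DU145 cells, and the miR-224 arrays lay below the scrambled and untransfected arrays.

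Between the lines, PC3 minus DU145, the HMOX1 change with miR-452 against untransfected cells differed by 0.68 ± 0.14 (adjusted p = 0.0156). This was lost without PC3 untransfected b (adjusted p = 0.0521) or c (0.0565), PC3 miR-452 b (0.0815), DU145 untransfected b (0.0516) or c (0.0897), or DU145 miR-452 a (0.0627). With miR-224 against untransfected cells it differed by -0.46 ± 0.14 and missed the threshold (adjusted p = 0.0681), which it passed at -0.58 after quantile normalization (0.0117) and without DU145 miR-452 a or c (0.0298 each). With miR-452 against scrambled mimic it was 0.53 ± 0.16 (adjusted p = 0.166, and 0.043 without DU145 miR-452 c).

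**Figure D2:**
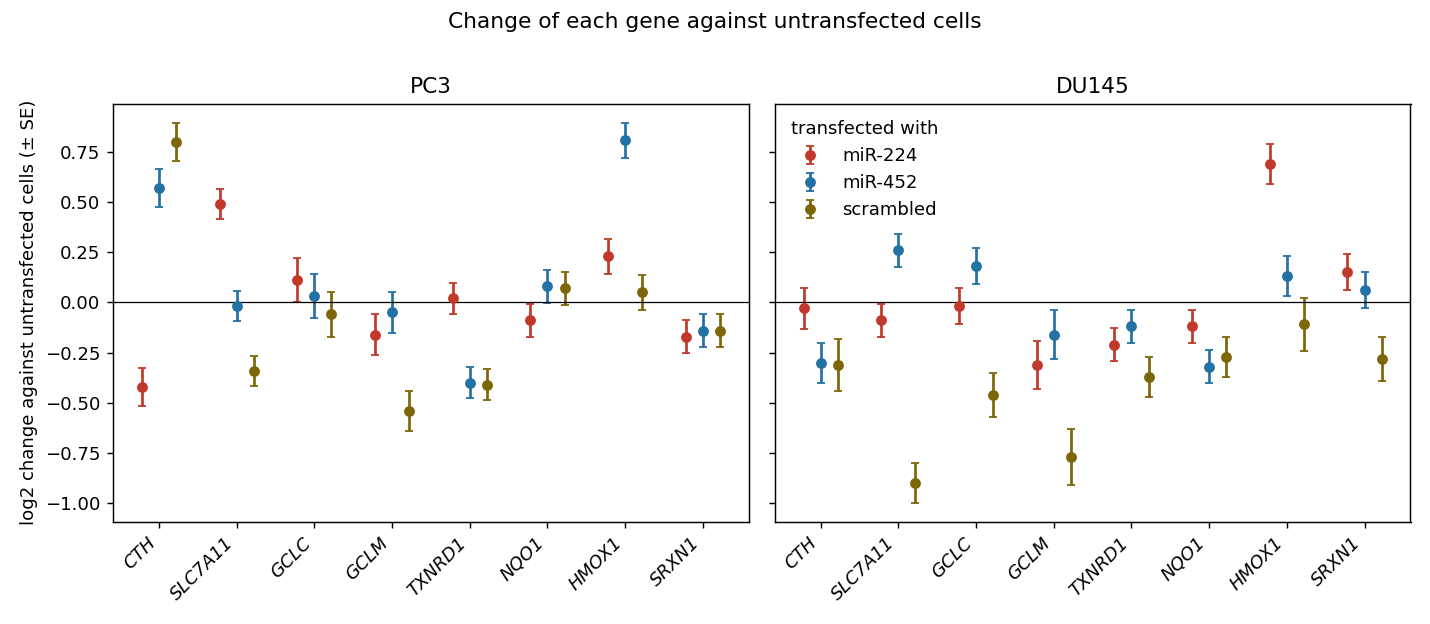
Log2 change of each gene against untransfected cells in PC3 and DU145 with miR-224, miR-452 and scrambled mimic; points are fitted differences and bars are 1 SE on each side. Scrambled mimic lies below 0 for SLC7A11, GCLM and TXNRD1 in both panels, and HMOX1 is highest with miR-452 in PC3 (0.81) and with miR-224 in DU145 (0.69).

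Taking the 8 genes as a list, the joint movement with the median furthest from 0, among the comparisons tested against untransfected cells, was with scrambled mimic in DU145. All 8 read lower on that 1 array than on either untransfected array, as 42.4% of all genes did, by a median of -0.34 where all genes had a median of 0.03, and SLC7A11, GCLC, GCLM and TXNRD1 fell past the threshold. Across all genes, 9.22% were called lower and 2.60% higher there. In PC3, 3 of the 7 genes other than CTH passed with scrambled mimic against untransfected cells: SLC7A11, GCLM and TXNRD1 fell, where 10.9% of all genes were called lower and 3.32% higher. The PC3 median of the 8 genes was -0.10, against 0.00 for all genes. Of all calls with scrambled mimic, 22% were higher in DU145 and 23.3% in PC3, which became 36.2% and 44.2% after quantile normalization. CTH is not counted in PC3 because its difference shares the scrambled arrays with the one by which it was noticed. By the labels, these groups differ in the scrambled mimic and its transfection, and in no microRNA of the study. An unlabelled batch or the quality of an array cannot be told apart from the mimic, above all with the 1 DU145 scrambled array. That array lay outside the untransfected DU145 arrays for 90.9% of all genes.

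Set against untransfected cells, the calls of these genes with either microRNA are given beside the shares of all genes called. With miR-224 in PC3, where CTH is again not counted, only SLC7A11 passed among the other 7, 1 higher beside 2.84% of all genes and 0 lower beside 6.85%, and the share of calls that were higher was 29.3%, or 43.8% after quantile normalization. With miR-224 in DU145 only HMOX1 passed among the 8, 1 higher and 0 lower beside 5.44% and 15.5% of all genes, and 26% of calls were higher, or 39.2% after quantile normalization. With miR-452 in PC3, CTH and HMOX1 rose and TXNRD1 fell, 2 higher and 1 lower beside 8.12% and 14.1% of all genes. With miR-452 in DU145, SLC7A11 rose and NQO1 fell, 1 higher and 1 lower beside 8.31% and 19.9% of all genes. The medians of the 8 genes were -0.04 and 0.00 for miR-224 and miR-452 in PC3, and -0.06 and -0.03 in DU145, where all genes had medians between -0.02 and 0.03.

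Set against scrambled mimic, more of the genes read higher. With miR-452, SLC7A11, GCLM and HMOX1 rose in PC3, 3 of 8 beside 2.89% of all genes called higher, and 0 fell beside 2.33% called lower. In DU145, SLC7A11 and GCLC rose with miR-452, 2 of 8 beside 0.577% of all genes called higher, and 0 fell beside 1.52% called lower. The medians were 0.05 in PC3 and 0.29 in DU145, against 0.01 and -0.02 for all genes. Of the miR-452 calls in DU145, 27.5% were higher, or 49.9% after quantile normalization. For miR-224 against scrambled mimic, the comparison already known when the genes were chosen, 5 of 8 differences lay above 0 and 3 below in PC3, with a median of 0.18, and all 8 lay above 0 in DU145, with a median of 0.44. Across all genes, 12.1% were called higher and 4.65% lower in PC3, and 0.631% and 1.31% in DU145. Nothing is read from the directions of the 8 genes here. The share of all calls higher with miR-224 was 72.2% in PC3 and 32.5% in DU145, or 57% and 43% after quantile normalization. Comparisons against scrambled mimic and those of scrambled mimic against untransfected cells share the scrambled arrays, so a low scrambled level enters both.

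Between the microRNAs themselves, 3 of the 7 genes other than CTH differed in PC3, and the CTH difference carries no test. SLC7A11 and TXNRD1 were higher with miR-224 than with miR-452, beside 12.5% of all genes, and HMOX1 was lower, beside 5.99%. Of all PC3 calls 67.6% were higher with miR-224, or 56.7% after quantile normalization. In DU145, HMOX1 was higher and SLC7A11 lower with miR-224 than with miR-452, beside 3.53% and 2.38% of all genes. For both SLC7A11 and HMOX1 the direction in DU145 was opposite to that in PC3; the difference between lines was not tested for this comparison.

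The test between lines passed for 1 of the 8 genes with miR-224 against untransfected cells (SLC7A11, beside 5.13% of all genes), for 2 with miR-452 against untransfected cells (CTH and HMOX1, beside 2.88%), and for 1 with miR-452 against scrambled mimic (SLC7A11, beside 0.620%). For scrambled mimic against untransfected cells, SLC7A11 missed the threshold as given above, where 0.207% of all genes passed. For miR-224 against scrambled mimic, where 1.15% of all genes passed, no test of the 8 genes is given. Of all genes called, the share with the higher change in PC3 was 84.5% for miR-224 against untransfected cells and 76.3% for miR-452 against scrambled mimic, or 64.6% and 62.4% after quantile normalization. It was 78.8% for miR-224 against scrambled mimic, or 58.3%.

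How the genes varied with each other across arrays is described by Pearson's r, with no test, since the arrays share 4 treatments and the same normalization. Over all 15 arrays, with the mean of each line subtracted, SLC7A11 and GCLC correlated at 0.80, SLC7A11 and TXNRD1 at 0.69, SLC7A11 and GCLM at 0.66, and GCLM and TXNRD1 at 0.60. These 4 genes had positive correlations with each other in each line taken alone, from 0.21 for GCLC with GCLM in PC3 to 0.97 for SLC7A11 with GCLC in DU145. In DU145 the lone scrambled array was the lowest for SLC7A11 (8.66), GCLC (9.29), GCLM (7.60) and TXNRD1 (10.52). The DU145 and 15-array values may therefore rest largely on that array, and they were not recomputed without it. CTH ran against SLC7A11 and TXNRD1 in PC3, at -0.90 and -0.91, but not in DU145, at 0.16 and 0.43. It went with NQO1 at 0.80 in PC3 and 0.89 in DU145. The DU145 values of CTH rest on its narrow range of 0.46 there, which was not tested against background. HMOX1 followed none of the glutathione genes closely, with values between 0.05 and 0.32 for GCLC, GCLM and SLC7A11, and correlated with SRXN1 at -0.30 in PC3 and 0.78 in DU145.

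**Figure D3:**
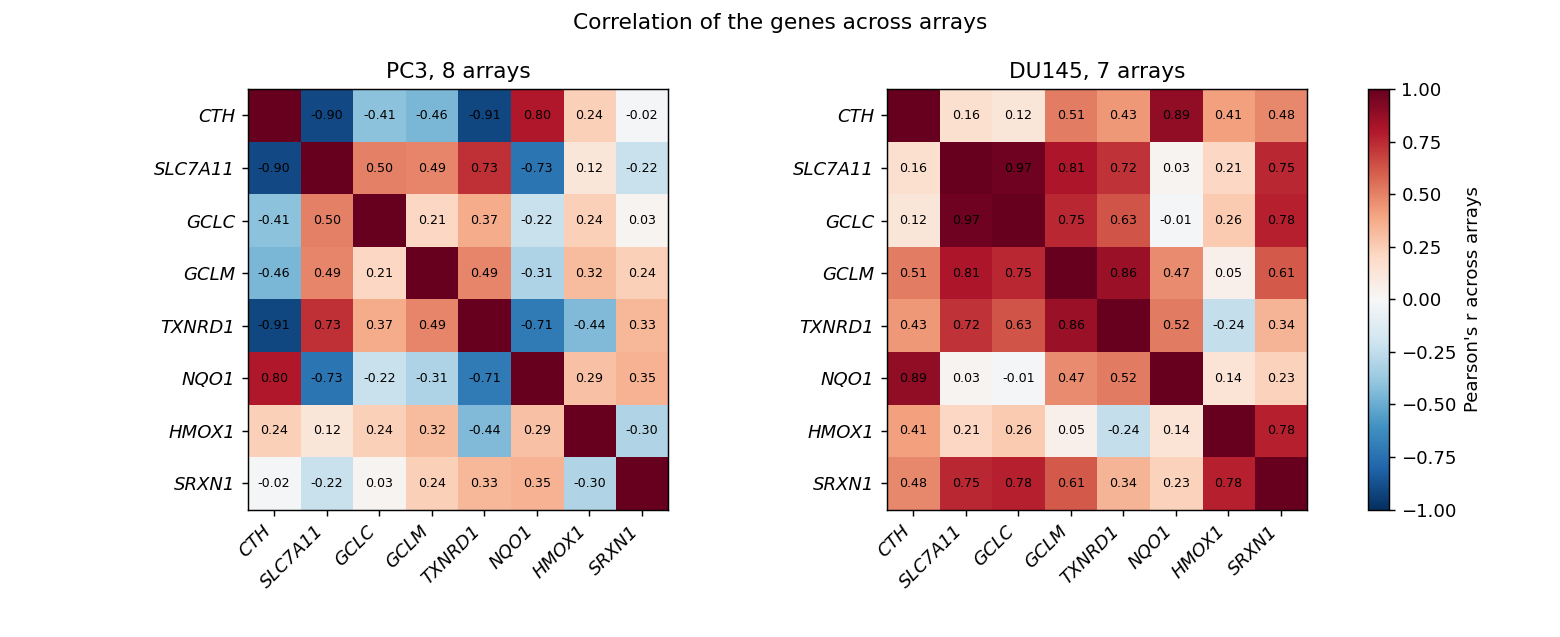
Pearson's r between each pair of the 8 genes across the 8 PC3 arrays and the 7 DU145 arrays; colour runs from -1 (blue) to 1 (red). SLC7A11, GCLC, GCLM and TXNRD1 form a positive block in both panels, and CTH is at -0.90 and -0.91 with SLC7A11 and TXNRD1 in PC3 only. In DU145 the lone scrambled array is the lowest for each gene of the block, which may rest largely on it.

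The genes whose levels ran most like CTH over the 15 line-centred arrays were MGAT4B (0.88), C16orf74 (0.88), PTGFR (0.86), NAV2 (0.86) and H3C10 (0.85). In PC3 alone these 5 correlated with CTH at 0.96, 0.95, 0.99, 0.91 and 0.90. In DU145, where CTH had a narrow range, they did so at 0.34, 0.26, -0.31, 0.44 and 0.79. The closest gene to each other member was RAB12 for SLC7A11 (0.93), TADA2B for GCLC (0.89), PPP1R12A for GCLM (0.95), RAB14 for TXNRD1 (0.97), IRS1 for SRXN1 (0.86), CREB3L2 for NQO1 (0.91) and TGFBR2 for HMOX1 (0.91). None of the 8 genes was the closest match of another.

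The wider pathways were followed through 7 lists that leave out the 8 genes, and their counts were set beside the shares of all genes called. With miR-224, miR-452 and scrambled mimic against untransfected cells, these shares were 2.84%, 8.12% and 3.32% higher and 6.85%, 14.1% and 10.9% lower in PC3. In DU145 they were 5.44%, 8.31% and 2.60% higher and 15.5%, 19.9% and 9.22% lower. Among the regulators of NRF2, the 3 central genes showed few changes against untransfected cells. NFE2L2 itself did not pass with any mimic in either line, and was -0.14 ± 0.091 with miR-224, -0.11 ± 0.091 with miR-452 and -0.28 ± 0.091 with scrambled mimic in PC3 (adjusted p = 0.413, 0.384 and 0.0645). In DU145 NFE2L2 was -0.20 ± 0.092, -0.24 ± 0.092 and -0.33 ± 0.11 with the same 3 mimics (adjusted p = 0.133, 0.0725 and 0.0779). KEAP1 fell with miR-452 in DU145 (-0.29 ± 0.096, adjusted p = 0.0473) and passed in no other of these 6 comparisons, and its call was lost after quantile normalization (-0.04, adjusted p = 0.718) and without untransfected b (0.299) or c (0.136), miR-224 a or c (0.0689 each) or miR-452 a (0.169). BACH1 passed in none of them, at -0.28 ± 0.10 with miR-224 in DU145 (adjusted p = 0.0735) and 0.12 ± 0.084 with miR-224 in PC3 (adjusted p = 0.446). SQSTM1, the autophagy receptor p62 that binds KEAP1, rose in PC3 with all 3 mimics, by 0.42 ± 0.082 with miR-224 (adjusted p = 0.00794), 0.60 ± 0.082 with miR-452 (adjusted p = 0.00082) and 0.50 ± 0.082 with scrambled mimic (adjusted p = 0.00506). The miR-224 call was lost without untransfected b (0.0688) or miR-224 a (0.0639), and the scrambled call without untransfected b (0.0817). PALB2, another KEAP1-binding protein, fell in DU145 with miR-224 (-0.72 ± 0.097, adjusted p = 0.00217) and miR-452 (-0.41 ± 0.097, adjusted p = 0.017), the second lost after quantile normalization (-0.18, adjusted p = 0.165) and without untransfected b (0.151) or c (0.071) or miR-452 a (0.0626). Of the 11 measured regulators, 1 rose and 1 fell with miR-224 in PC3, 1 rose and 1 fell with miR-452, and 1 rose with scrambled mimic. In DU145, 0 rose, and 1 fell with miR-224, 2 with miR-452 and 0 with scrambled mimic. In DU145 the 2 that fell with miR-452 became 0 without untransfected b or c or miR-452 a, 1 without miR-224 a or c, and 5 without miR-452 c. After quantile normalization 1 rose and 1 fell with miR-224 in DU145, and with miR-452 1 rose and 0 fell in PC3 and 0 changed past the threshold in DU145. The list medians lay between -0.17 and -0.06, beside all-gene medians of -0.02 to 0.03.

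Of 23 other measured targets of NRF2, 6 rose and 1 fell in PC3 with miR-452, beside 8.12% of all genes called higher and 14.1% called lower. After quantile normalization 6 rose and 0 fell there, and the 6 became 1 without untransfected b, 2 without miR-452 b, and 3 without miR-452 c, miR-224 a or miR-224 b. AKR1C3, an aldo-keto reductase with close paralogs that its probes may share, rose by 0.54 ± 0.080 (adjusted p = 0.00128), and FTL, the ferritin light chain, by 0.40 ± 0.094 (adjusted p = 0.013), lost without untransfected b (0.0789) or c (0.0538) or miR-452 c (0.102). AKR1C3 also rose with scrambled mimic, by 0.49 ± 0.080 (adjusted p = 0.00492, and 0.0544 without untransfected b), where 2 of 23 rose and 0 fell, or 7 and 0 after quantile normalization. With miR-224 in PC3, 0 rose and 1 fell, NQO2, a quinone reductase (-0.40 ± 0.077, adjusted p = 0.00722), lost without untransfected b (0.051) or miR-224 a (0.0698). In DU145, 3 rose and 1 fell with miR-224, 3 rose and 3 fell with miR-452, and 0 rose and 2 fell with scrambled mimic. After quantile normalization these counts were 5 and 0, 2 and 0, and 1 and 1. With 1 DU145 array left out at a time, the numbers that rose ranged from 0 to 4, 0 to 3 and 0 to 2 and those that fell from 0 to 4, 0 to 7 and 0 to 4, each lowest without untransfected b or c or an array of the mimic, and the falls highest without a miR-452 array. OSGIN1 rose with miR-224 there (0.42 ± 0.096, adjusted p = 0.0162), lost without untransfected b (0.0678) or c (0.165) or miR-224 c (0.126). ME1, the cytosolic malic enzyme, fell with scrambled mimic (-0.56 ± 0.11, adjusted p = 0.0209), lost without untransfected b (0.138) or c (0.101). The list medians were -0.01, 0.05 and 0.09 with miR-224, miR-452 and scrambled mimic in PC3, and 0.07, -0.03 and 0.04 in DU145.

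Among genes of transsulfuration and the methionine cycle other than CTH and CBS, the counts of calls against untransfected cells depended on single arrays and on the normalization. Of 17 measured, 3 fell with miR-224, 4 with miR-452 and 1 with scrambled mimic in PC3, beside 6.85%, 14.1% and 10.9% of all genes called lower, and 0 rose. In DU145, 1 rose and 5 fell with miR-224, 2 rose and 4 fell with miR-452, and 2 rose and 1 fell with scrambled mimic, beside 15.5%, 19.9% and 9.22% of all genes called lower. Without untransfected b the numbers that fell were 1 with miR-224 and 0 with miR-452 in PC3 and 1 and 0 in DU145, and they were also 1 and 0 without untransfected c in DU145. Over all arrays left out in turn, they ranged from 1 to 3 and 0 to 4 in PC3 and from 1 to 5 and 0 to 6 in DU145. After quantile normalization 0 rose and 2 fell, 1 rose and 2 fell, and 0 changed in PC3, and 0 rose and 1 fell, 1 rose and 0 fell, and 1 rose and 0 fell in DU145. MTRR, which reactivates methionine synthase, fell with miR-224 in PC3 (-1.01 ± 0.081, adjusted p = 5.25e-05) and in DU145 (-1.38 ± 0.087, adjusted p = 0.000208), and both calls held after quantile normalization and without each array of the line. MTR, methionine synthase, fell in DU145 with miR-224 (-0.41 ± 0.084, adjusted p = 0.0109), miR-452 (-0.35 ± 0.084, adjusted p = 0.0165) and scrambled mimic (-0.42 ± 0.10, adjusted p = 0.0349). All 3 calls of MTR were lost after quantile normalization (-0.20, -0.10 and -0.22, adjusted p = 0.0887, 0.346 and 0.135) and without untransfected b (0.123, 0.146 and 0.197) or c (0.0835, 0.102 and 0.155), the first also without miR-224 c (0.0822) and the last without miR-224 a or c (0.0541 each). The list medians stayed between -0.02 and 0.09, beside all-gene medians of -0.02 to 0.03.

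Glutathione genes other than GCLC, GCLM and SLC7A11 had more lower than higher calls in DU145 with either microRNA, as all genes had. Of 29 measured, 0 rose and 6 fell with miR-224, 0 rose and 11 fell with miR-452, and 1 rose and 1 fell with scrambled mimic, with medians of -0.17, -0.18 and -0.08. After quantile normalization 2 rose and 6 fell with miR-224, 2 rose and 3 fell with miR-452, and 1 rose and 1 fell with scrambled mimic. The 11 that fell with miR-452 became 2 without untransfected b, 3 without untransfected c and 5 without miR-452 a, and were 15 at most. The 6 that fell with miR-224 became 2 without untransfected b, 1 without untransfected c, 3 without miR-224 c, and 12 without miR-452 a or c. The 1 that fell with scrambled mimic became 7 without miR-452 a or c. Across all genes, 15.5% were called lower and 5.44% higher with miR-224, and 19.9% and 8.31% with miR-452. Of all calls, 26% were higher with miR-224 and 29.5% with miR-452, or 39.2% and 39.4% after quantile normalization. GSTM4, a glutathione transferase with close paralogs, fell with miR-452 (-0.96 ± 0.13, adjusted p = 0.00217), as did GSTM3 (-0.58 ± 0.095, adjusted p = 0.00447). In PC3, 1 rose and 4 fell with miR-224, 0 changed with miR-452 past the threshold and 0 rose and 3 fell with scrambled mimic, with medians of -0.08, -0.03 and 0.03. After quantile normalization the PC3 counts were 1 and 3, 2 and 0, and 3 and 0, so the direction of the calls turned with scrambled mimic. The falls with miR-224 and scrambled mimic in PC3 ranged from 0 to 4 and 0 to 2 with 1 array left out, at 1 and 0 without untransfected b. The first was also 0 on leaving out miR-224 b, and the second 0 on leaving out scrambled c. GLRX, glutaredoxin, rose with miR-224 in PC3 (0.36 ± 0.084, adjusted p = 0.0204) and fell with it in DU145 (-0.75 ± 0.13, adjusted p = 0.00533). Its PC3 rise was lost without untransfected b (0.0704) or c (0.105) or miR-224 a (0.147) or b (0.063), and with all 15 arrays in 1 fit (0.0542). GSS, which completes glutathione, fell with scrambled mimic in PC3 (-0.33 ± 0.090, adjusted p = 0.0349), lost after quantile normalization (-0.19, adjusted p = 0.155) and without untransfected b (0.179) or c (0.101) or scrambled c (0.202). CHAC1, which degrades glutathione and is a known ATF4 target, did not pass in any of these 6 comparisons, with differences from -0.21 ± 0.12 to 0.13 ± 0.098.

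Of 17 measured thioredoxin and peroxiredoxin genes, 2 rose and 4 fell with miR-224 in PC3, 1 rose and 3 fell with miR-452, and 1 rose and 1 fell with scrambled mimic, with medians of -0.14, -0.08 and -0.02. In DU145, 1 rose and 2 fell with miR-224, 1 rose and 4 fell with miR-452, and 0 rose and 1 fell with scrambled mimic, with medians of -0.01, -0.12 and -0.04. Across all genes, the shares called lower were 6.85%, 14.1% and 10.9% in PC3 and 15.5%, 19.9% and 9.22% in DU145. With 1 array left out, the falls with the 3 mimics ranged from 1 to 4, 0 to 3 and 0 to 1 in PC3, at 1, 0 and 0 without untransfected b, and from 2 to 4, 0 to 6 and 0 to 3 in DU145, where miR-452 gave 1 without untransfected b or miR-452 a and 0 without untransfected c. After quantile normalization 2 rose and 3 fell, 1 rose and 2 fell, and 2 rose and 0 fell in PC3, and 2 rose and 2 fell, 1 rose and 1 fell, and 2 rose and 0 fell in DU145. PRDX3, the mitochondrial peroxiredoxin, fell with miR-224 in PC3 (-1.29 ± 0.087, adjusted p = 2.41e-05) and in DU145 (-1.28 ± 0.082, adjusted p = 0.000208), which held after quantile normalization and without each array of the line. MSRB3, a methionine sulfoxide reductase, fell with scrambled mimic in PC3 (-0.32 ± 0.081, adjusted p = 0.0252) and DU145 (-0.48 ± 0.11, adjusted p = 0.0289). Both MSRB3 calls were lost after quantile normalization (-0.23 and -0.31, adjusted p = 0.0703 and 0.0654), in PC3 without untransfected b (0.221) or scrambled b (0.0527) or c (0.0949), and in DU145 without untransfected b (0.158) or c (0.137). Among 6 genes of superoxide and peroxide removal, 1 fell with miR-224 and 2 with miR-452 in each line, and 0 with scrambled mimic, while after quantile normalization 1 fell with miR-224 and 0 with miR-452 in each line. The 2 with miR-452 also became 0 without untransfected b in each line, without miR-452 b in PC3, and without untransfected c or miR-452 a in DU145. SOD1, the cytosolic superoxide dismutase, fell with miR-224 in PC3 (-0.81 ± 0.098, adjusted p = 0.000558) and in DU145 (-0.44 ± 0.090, adjusted p = 0.0113), the second lost without untransfected b (0.127) or c (0.0655) or miR-224 a (0.0611) or c (0.0555). The medians of these 6 genes lay between -0.19 and -0.02.

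Amino acid response genes are in many cases targets of ATF4, a transcription factor made when amino acids run short. Of 23 measured, 1 rose and 8 fell with miR-452 in PC3, beside 14.1% of all genes called lower, and 1 rose and 6 fell in DU145, beside 19.9%. After quantile normalization 2 rose and 5 fell in PC3, and in DU145 the balance turned, with 3 rising and 2 falling. The 8 that fell in PC3 became 3 without untransfected b, 5 without miR-452 b and 4 without miR-452 c, and the 6 in DU145 became 1 without untransfected b or c, 3 without miR-452 a and 10 without miR-452 c. ATF4 fell with miR-452 in PC3 (-0.55 ± 0.094, adjusted p = 0.00296) and in DU145 (-0.41 ± 0.10, adjusted p = 0.0213). The PC3 call held without each PC3 array, and the DU145 call was lost after quantile normalization (-0.16, adjusted p = 0.284) and without untransfected b (0.168) or c (0.0735) or miR-452 a (0.0881). With miR-224, ATF4 was -0.13 ± 0.094 in PC3 (adjusted p = 0.432) and -0.25 ± 0.10 in DU145 (adjusted p = 0.113). With scrambled mimic ATF4 was -0.14 ± 0.094 in PC3 (adjusted p = 0.319) and -0.21 ± 0.13 in DU145 (adjusted p = 0.265). PSAT1, of serine synthesis, fell in PC3 with miR-452 (-0.63 ± 0.094, adjusted p = 0.00133) and scrambled mimic (-0.61 ± 0.094, adjusted p = 0.00432, and 0.0718 without untransfected b). ASNS, asparagine synthetase, did not pass with any mimic and came closest with miR-452 in PC3 (-0.34 ± 0.12, adjusted p = 0.0594). With miR-224, 0 rose and 3 fell in PC3 and 1 rose and 4 fell in DU145, and with scrambled mimic 1 rose and 3 fell in PC3 and 0 rose and 3 fell in DU145. After quantile normalization these counts were 0 and 2, 3 and 2, 2 and 3, and 0 and 1. With 1 array left out, the falls with miR-224 ranged from 0 to 4 in PC3 and 0 to 6 in DU145, and those with scrambled mimic from 0 to 3 and 0 to 7, all 4 at 0 without untransfected b. The list medians were -0.13, -0.23 and -0.05 with miR-224, miR-452 and scrambled mimic in PC3, and -0.10, -0.13 and -0.11 in DU145.

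**Figure D4:**
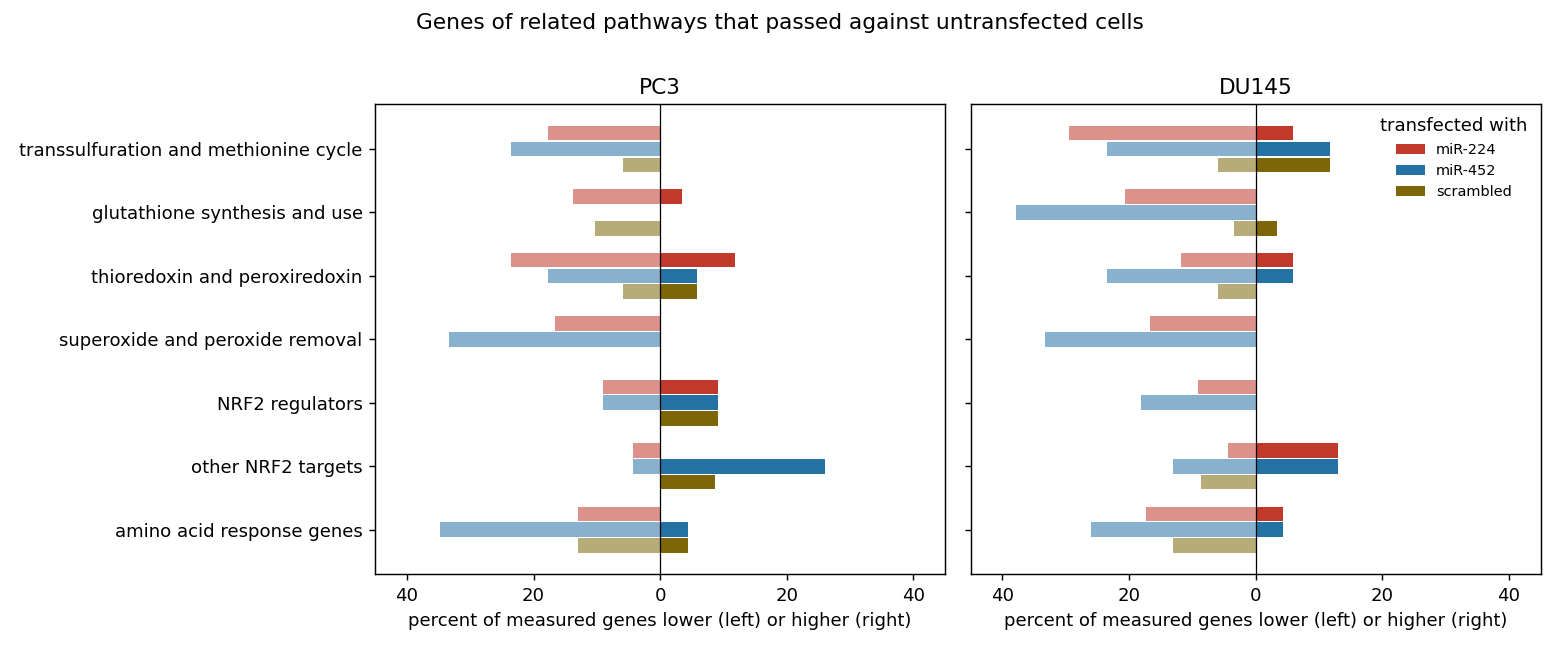
Share of the measured genes of 7 related pathway lists that passed the test against untransfected cells in PC3 and DU145, lower to the left and higher to the right, with miR-224, miR-452 and scrambled mimic from top to bottom in each list. The longest bar to the right is that of other NRF2 targets with miR-452 in PC3 (6 of 23), and the longest to the left that of glutathione genes with miR-452 in DU145 (11 of 29); without untransfected b these counts are 1 and 2.

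Markers of other cell types gave the following counts against untransfected cells, to be read beside the 2.60% to 8.31% of all genes called higher and the 6.85% to 19.9% called lower. Of 6 leukocyte markers, 1 fell with miR-224 in PC3 and 1 rose with scrambled mimic, beside the 2 that rose with miR-452, and in DU145 1 rose with miR-452 and 1 with scrambled mimic. After quantile normalization 1 fell with miR-224 and 1 rose with miR-452 in PC3, and 0 passed with scrambled mimic in PC3 or with any mimic in DU145. Of 6 stromal markers, 0, 3 and 1 rose with miR-224, miR-452 and scrambled mimic in PC3 and 1, 2 and 0 in DU145, or 0, 4 and 1 and 0, 1 and 0 after quantile normalization. The 3 with miR-452 in PC3 became 1 without untransfected b, miR-452 b or miR-452 c, and the 2 in DU145 became 0 without untransfected b or c or miR-452 a and 4 without miR-452 c. Of 5 endothelial markers, 1 fell with scrambled mimic in PC3 and 1 rose with miR-452 in DU145, and 0 passed after quantile normalization. Of 2 measured luminal markers, 0 passed in PC3, and in DU145 1, 2 and 1 rose, or 0, 1 and 0 after quantile normalization. Of 6 epithelial markers, 2 fell with miR-224, 2 rose with miR-452 and 1 fell with scrambled mimic in PC3, and 4, 2 and 1 fell in DU145. After quantile normalization these counts were 2, 3 and 1 in PC3 and 3, 0 and 0 in DU145. Without untransfected b, 1 rose with miR-452 and 0 fell with scrambled mimic in PC3, and 1 fell with miR-224 and 0 with miR-452 in DU145. EPCAM fell with miR-224 in PC3 (-1.05 ± 0.13, adjusted p = 0.000602) and in DU145 (-1.54 ± 0.17, adjusted p = 0.000937), and rose with miR-452 in PC3 (0.97 ± 0.13, adjusted p = 0.000727). Their part in the results above was not tested.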

How the data were processed

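The deposited table held log2 levels that the authors made from Affymetrix Human Gene 1.0 ST arrays in GeneSpring GX 11.0 by its RMA16 option, normalizing each line by itself, per the series' design text and the submitters' processing notes. Each array was labelled from 100 ng of total RNA, per the labels' protocols. The genome build and the meaning of the option's number are not given in the sources used here. The values were used as deposited, 28869 features on 15 arrays. Features with 1 gene symbol (19310) were averaged per gene, which gave 18377 genes, with no filter on level. Symbols were brought up to date by Entrez number through the RefSeq gene table, which matched 19279 features. Each of the 8 genes described rests on 1 feature.

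Differences were fitted with limma 3.58.1 in R 4.3.3, with 4 group means per line (4 residual degrees of freedom for PC3 and 3 for DU145), and differences between lines in a fit of 8 group means (7). Tests were two-sided, with Benjamini-Hochberg adjustment over all 18377 genes and a threshold of 0.05; a gene past it is said to rise or fall. The lone DU145 scrambled array was taken to vary like the other groups, and precision is limited by how few arrays there are. The method was also run on simulated data with 200 changed genes and independent noise for each gene. Its outcome is not given here. The simulation had no gap in spread between transfected and untransfected arrays, so it does not bear on that feature of these arrays.

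The genes, lists and tests were chosen with earlier results of these data known. Named are all 9 genes, the 5 genes most like CTH, the closest gene to each other member, up to 3 genes with the smallest p per list and comparison, and NFE2L2, KEAP1, BACH1, ATF4, ASNS and CHAC1. SQSTM1, MSRB3 and AKR1C3 were followed into other comparisons under the same rule. The lists, written from general knowledge, are transsulfuration and methionine cycle, glutathione, thioredoxin and peroxiredoxin, superoxide and peroxide removal, NRF2 regulators, other NRF2 targets, amino acid response, and epithelial, luminal, leukocyte, stromal and endothelial markers. Alternatives were quantile normalization within the line, genes under percentile 20 left out, trend and robust moderation, 1 fit of all 15 arrays, the highest feature per gene, a block for the replicate letter, and fits without 1 array at a time.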

Additional observations from a re-analysis of the deposited data

Results flagged for a closer look

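4 changes differed between the lines in a limma contrast of the PC3 change minus the DU145 change over all 15 arrays. For SLC7A11 the change with miR-452 against scrambled mimic differed by -0.84 (adjusted p = 0.00464), with the rise smaller in PC3 (0.32) than in DU145 (1.16), and the change with miR-224 against untransfected cells differed by 0.58 (adjusted p = 0.00711), at 0.49 in PC3 and -0.09 in DU145. For CTH the change with miR-452 against untransfected cells differed by 0.87 (adjusted p = 0.00467), at 0.57 in PC3 and -0.30 in DU145. The spread behind that p-value includes the arrays by which CTH was noticed. For HMOX1 the same comparison differed by 0.68 (adjusted p = 0.0156), at 0.81 in PC3 and 0.13 in DU145. The first SLC7A11 difference rests on the 1 scrambled DU145 array. The HMOX1 difference ranged from 0.55 to 0.82 with 1 array left out and did not pass in every such fit, as given above. With a block for the replicate letter, these differences were no longer called.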

How the results depend on the processing

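No call of the 8 genes changed direction under any alternative. The 28 calls given with a test were refitted 175 times without leaving out arrays, and 153 of these kept the call while 22 lost it. With 1 array left out, 187 of 234 refits kept the call and 47 lost it. The counts that follow are over all 8 genes; those of miR-224 against scrambled mimic, and CTH where its arrays of choice enter, describe the fits and are not tests. The count of genes called moved by over 1.5 times as follows. After quantile normalization it was 4 rather than 2 for miR-224 and for miR-452 against scrambled mimic in DU145, 2 rather than 1 for miR-224 and 2 rather than 4 for scrambled mimic against untransfected DU145 cells, and between lines 3 rather than 1 for miR-224 against scrambled mimic and against untransfected cells, and 2 rather than 1 for scrambled mimic against untransfected cells. With trend and robust moderation it was 4, 4 and 2 for the first 3 of these DU145 comparisons and 2 for the last difference between lines. With all arrays in 1 fit it was 2 for miR-224 against untransfected DU145 cells, and with low genes left out 1 rather than 2 for miR-452 against untransfected DU145 cells. Over all genes, quantile normalization moved the number called from 357 to 560 and from 386 to 714 for miR-224 and miR-452 against scrambled mimic in DU145, from 3850 to 2557, from 5178 to 2253 and from 2172 to 942 for miR-224, miR-452 and scrambled mimic against untransfected DU145 cells, and from 212 to 326 and from 114 to 173 for the differences between lines with miR-224 and miR-452 against scrambled mimic. The cause of these shifts was not tested. Refitted by a choice made after seeing the data, named genes of the pathway and marker lists had 54 calls against untransfected cells, of which 0 changed direction, while 54 of 349 refits lost the call without leaving out arrays and 106 of 404 did with 1 array left out.

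With each array left out in turn, the count ranged in PC3 from 3 to 4 for miR-224 and 1 to 3 for miR-452 against scrambled mimic, from 1 to 2, 2 to 3 and 1 to 4 for miR-224, miR-452 and scrambled mimic against untransfected cells, and was 4 throughout between microRNAs. In DU145 the same ranges were 1 to 4, 1 to 4, 1 to 3, 0 to 3, 0 to 7 and 0 to 3. Between lines they were 1 to 2 for miR-224 and for miR-452 against scrambled mimic, and 1 to 2, 1 to 3 and 0 to 2 for miR-224, miR-452 and scrambled mimic against untransfected cells. Deviations of same-lettered arrays correlated at -0.15 to 0.27 in PC3 and at -0.31 in DU145. Only pairs of groups that share both letters could be compared. These values cannot decide whether the letters mark batches. With the replicate block, 0 genes were called in DU145 for miR-224 and for miR-452 against scrambled mimic and for miR-452 against untransfected cells, 1 for scrambled mimic against untransfected cells and 1 between microRNAs, and 0 in each difference between lines; the block left 2 residual degrees of freedom in PC3 and 1 in DU145. A block that swapped the letters of the miR-452 arrays in DU145, added after seeing the data, gave 0, 1, 2 and 1 for miR-224 and miR-452 against scrambled mimic and against untransfected cells.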
